A study of Mus musculus with 5 samples.

Results

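The HoxC and HoxD gene clusters were described CpG by CpG in blood stem and progenitor cells of Idh1-R132H knock-in and wild-type mice. Members were chosen by position alone, without regard to their methylation, as the CpG positions listed in build mm9 between chr15:102740000-102875000 (HoxC) and chr2:74490000-74610000 (HoxD). A position is one strand of a CpG with at least 10 reads in a library. Of 2700 such positions seen in any library, 536 had at least 10 reads in all 5 libraries, 144 in HoxC and 392 in HoxD, out of 280635 autosomal positions shared in the same way. These 536 shared positions fell into 49 tiles of 1 kb with at least 3 shared positions each, 21 in HoxC and 28 in HoxD, out of 24319 such tiles on the autosomes.

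The assay was ERRBS, an extended form of reduced representation bisulfite sequencing, in which the enzyme MspI cuts DNA at CCGG sites and bisulfite turns unmethylated cytosines into uracil, so that a base read as C counts as methylated and one read as T as unmethylated. The cells were LSK cells, bone marrow cells without lineage markers that carry Sca1 and Kit. The groups were 3 libraries from Idh1-R132H knock-in mice and 2 from wild-type mice, all on a 129Ola x C57Bl/6J background, named knock-in 1 to 3 and wild-type 1 and 2 here. Age, sex, the cells in which the mutant allele was switched on and whether a library came from 1 animal or a pool are not given in the sources used here, so p-values reflect only how far these libraries spread, some of which may be technical. No expression was measured, and the LSK gate could not be checked against marker genes.

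Hox genes encode homeodomain transcription factors that set position along the body axis, and they lie in clusters whose gene order follows the order in which they are used. Silent Hox genes are typically held by Polycomb proteins, and their CpG islands usually lack DNA methylation. In blood stem cells most Hox activity comes from HoxA and HoxB, while HoxC and HoxD genes are little used. IDH1-R132H makes 2-hydroxyglutarate, which inhibits TET enzymes, the proteins that oxidise methylcytosine.

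In RefSeq's order (GRCm38.p6) HoxD runs from Evx2, a homeobox gene beside the cluster, and Hoxd13 down to Hoxd1 and the neighbour Mtx2, a mitochondrial outer membrane protein gene. HoxC runs in the same direction from Hoxc13 through Hotair, a long noncoding RNA, to Hoxc4. No mm9 annotation was used, so a gene was placed on the methylation data only where the spacing of the CpGs in its RefSeq promoter (250 bases before to 50 after the start site) matched the spacing of the listed positions and matched no other place nearly as well. Of the 25 genes and RNAs looked up, 12 had a promoter sequence, and 5 HoxD promoters were placed in this way, with 13 to 35 listed positions matched in each. They were Hoxd12, Hoxd11, Hoxd10, Hoxd9 and Hoxd1, and they came out in RefSeq's order. The only HoxC promoter sequence found, that of Hoxc4, could not be placed, so HoxC tiles are given by coordinate alone.

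The 250 bases before the start site are shown for the 4 placed promoters that held positions shared by all 5 libraries, since they carry the CpGs whose levels follow. Capitals mark the CpGs read in all 5 libraries on at least one strand. The letters are RefSeq's (GRCm38.p6) on the plus strand, and the mm9 place is that of the matched positions: Hoxd11 at chr2:74520130-74520379, Hoxd10 at chr2:74529698-74529947, Hoxd9 at chr2:74535570-74535819 and Hoxd1 at chr2:74600787-74601036.
Hoxd11: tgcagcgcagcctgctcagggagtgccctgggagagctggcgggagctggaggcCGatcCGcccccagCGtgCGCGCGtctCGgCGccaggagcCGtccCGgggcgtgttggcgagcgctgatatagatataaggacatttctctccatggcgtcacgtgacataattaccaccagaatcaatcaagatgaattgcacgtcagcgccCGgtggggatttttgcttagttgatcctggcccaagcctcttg
Hoxd10: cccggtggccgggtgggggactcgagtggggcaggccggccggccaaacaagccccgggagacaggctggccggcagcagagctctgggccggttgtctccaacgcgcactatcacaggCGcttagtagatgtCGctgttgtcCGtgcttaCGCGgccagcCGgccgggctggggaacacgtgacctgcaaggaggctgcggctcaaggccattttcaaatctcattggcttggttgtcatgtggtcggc
Hoxd9: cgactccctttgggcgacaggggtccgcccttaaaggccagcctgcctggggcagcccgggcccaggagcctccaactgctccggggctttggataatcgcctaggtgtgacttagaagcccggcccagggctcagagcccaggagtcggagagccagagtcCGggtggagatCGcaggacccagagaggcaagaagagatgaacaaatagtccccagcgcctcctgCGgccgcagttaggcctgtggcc
Hoxd1: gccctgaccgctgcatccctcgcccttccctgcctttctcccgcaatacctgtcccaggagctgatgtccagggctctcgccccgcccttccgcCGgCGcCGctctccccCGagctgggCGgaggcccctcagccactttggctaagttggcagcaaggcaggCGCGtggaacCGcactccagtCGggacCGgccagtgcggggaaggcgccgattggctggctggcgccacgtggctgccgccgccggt

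These promoters are rich in CpGs, but placement needed at least 10 matched positions, so windows with few CpGs could hardly be placed. The comparison with all promoters therefore describes the placed windows and not Hox promoters in general. The Hoxd11 stretch shown holds 20 CpGs, Hoxd10 20, Hoxd9 13 and Hoxd1 24, while the median RefSeq promoter window of 300 bases holds 7. CCGG, the MspI site, reads the same on both strands and occurs 2 times in the whole 300-base Hoxd11 window, 10 times in Hoxd10, 6 times in Hoxd9 and 3 times in Hoxd1. Of all 32851 promoter windows in the table, 52.8% hold it at least once.

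Depth differed widely between libraries. Median reads per shared position in HoxC were 51 in knock-in 1, 26.5 in knock-in 2, 140.5 in knock-in 3, 17 in wild-type 1 and 36 in wild-type 2, and the HoxD medians were 63, 20, 136, 18 and 36 in the same order. Knock-in 2 and wild-type 1, the shallowest libraries of their groups, also stood apart on chromosome X, where CpG-dense tiles averaged 24.1% in each, against 2.94% to 3.82% in the other 3. Over 27 mitochondrial CpGs, 0.0363% to 0.198% of bases were read as C, far below the mean level of either cluster. The lowest Hox tiles and promoters were not above this range, such as the Hoxd9 promoter, which averaged 0.188%. Reads carry no molecular identifiers, so intervals and floors cover counting error only. Reads of a tile or promoter are summed over its positions, and a read that covers several positions counts at each. The floors given for tiles and promoters are therefore lower than the independent reads allow.

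Both clusters had low mean levels in all 5 libraries. The mean level of the shared HoxC positions was 5.43% in knock-in 1, 5.95% in knock-in 2, 5.11% in knock-in 3, 4.57% in wild-type 1 and 4.19% in wild-type 2. The 3 knock-in libraries were all above the 2 wild-type libraries. The group means were 5.50% ± 0.426 (SD, n = 3) and 4.38% ± 0.269 (SD, n = 2), a difference of 1.12 percentage points (exact two-sided permutation p = 0.1, the smallest that 3 against 2 libraries allow, and 0.25 adjusted over the 5 level tests). The difference was 1.35 points after thinning to 10 reads, 1.36 with strands joined and 0.857 over each library's own positions (exact permutation p = 0.2, 0.1 and 0.4). The order of the groups did not hold in all ways of counting. Among the 36 positions with at least 20 reads everywhere the difference was -0.703 points. Over the 534 positions shared by the 3 deepest libraries, 2 knock-in and 1 wild-type, it was -0.291, and weighting each position by its reads left 0.212. Without the 2 HoxC tiles of 20% or more it was 0.533 points (exact p = 0.3), an alternative added after seeing the data. Within the pair of libraries high on chromosome X it was 1.39 points and within the other 3 it was 1.08.

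In HoxD the mean level was 4.82% in knock-in 1, 4.45% in knock-in 2, 5.50% in knock-in 3, 4.26% in wild-type 1 and 5.86% in wild-type 2. The wild-type libraries lay at the bottom and at the top, with all 3 knock-in libraries between them. The knock-in mean of 4.92% ± 0.531 (SD, n = 3) and the wild-type mean of 5.06% ± 1.13 (SD, n = 2) differed by -0.139 points (exact two-sided permutation p = 0.9). The sign turned without wild-type 2, to 0.657, and without knock-in 2, to 0.0980. It was 0.184 points within the pair high on chromosome X and -0.698 within the other 3. HoxD and HoxC did not separate from each other either: HoxD minus HoxC averaged -0.0714 points ± 1.19 (SD, n = 5; exact two-sided sign-flip p = 0.875), positive in 2 of 5 libraries. The group difference was 1.26 points larger in HoxC than in HoxD (exact permutation p = 0.4), with overlapping groups.

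**Figure D1:**
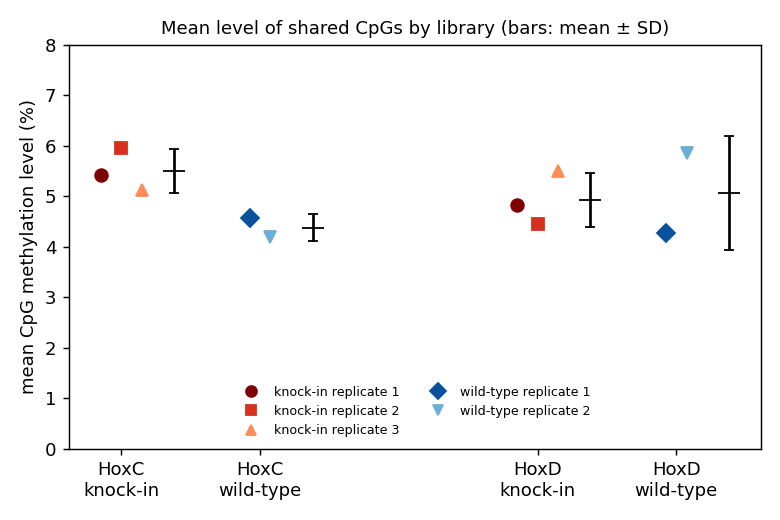
Mean methylation level (%) of the 144 HoxC and 392 HoxD positions in each library (symbols), with group mean ± SD (black bars). The 3 knock-in libraries are above both wild-type libraries in HoxC (5.11% to 5.95% against 4.19% to 4.57%), while in HoxD wild-type 1 and wild-type 2 are at 4.26% and 5.86%, below and above all knock-in libraries.

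A small number of positions held a large share of the methylation. Of the shared positions, 26 HoxC and 93 HoxD positions had no methylated read in any library, and the median position, averaged over the 5 libraries, was at 2.07% in HoxC and 1.61% in HoxD. Only 8 HoxC and 17 HoxD positions averaged 20% or more, yet they held 36.7% and 37.1% of their cluster's summed level. By tile, 1 HoxC tile was under 1%, 18 were from 1% to 20% and 2 were from 20% to 80%. HoxD had 5, 22 and 1 tiles in these classes. No tile of either cluster reached 80%, a level met by 30.2% of the other 24270 autosomal tiles.

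Low methylation is common at CpG-dense sites, so tiles were compared with autosomal tiles of the same density, counted as positions listed per tile (3 to 9, 10 to 29, or 30 and more). HoxC tiles lay 27.1 points ± 0.499 (SD over 5 libraries) below the density-matched rest of the autosomes and HoxD tiles 14.5 ± 0.599 below, in 5 of 5 libraries each (exact two-sided sign-flip p = 0.063, the smallest possible with 5 libraries, 0.0938 adjusted over 9 such comparisons, so none can pass 0.05). The gap came from the sparser tiles. The 14 HoxC tiles under 30 positions averaged 6.98% and were 40.9 points below their match, and the 9 such HoxD tiles averaged 7.56% and were 47.1 points below (exact p = 0.063 for each). The 11 tiles within 200 kb on either side of HoxC averaged 27.2%, and the HoxC tiles were 21.3 points ± 1.48 lower (SD, n = 5; exact p = 0.063). This comparison with the flanks pooled both sides and was not matched for density.

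In the mean, CpG-dense Hox tiles lay close to their match. Their mean level, 3.74% over 7 HoxC tiles and 4.13% over 19 HoxD tiles, was near the 3.23% of the 11203 other dense tiles. The differences were 0.506 points ± 0.996 (SD, n = 5, exact sign-flip p = 0.375) and 0.900 ± 0.866 (SD, n = 5, exact sign-flip p = 0.125). With 5 libraries this test cannot give a p below 0.063, so it cannot decide whether the means differ. The SD is over libraries and does not cover the spread between tiles. The typical tile differed more. In HoxD the median dense tile was at 3.06% in knock-in 1, 2.89% in knock-in 2, 4.24% in knock-in 3, 2.03% in wild-type 1 and 3.24% in wild-type 2, while the median of the other dense tiles was between 0 and 0.145% in these libraries. The difference was 3.02 points ± 0.749 (SD, n = 5), positive in all 5 libraries (exact sign-flip p = 0.063, the smallest possible). In HoxC the median dense tile was 2.30 points above the rest in the mean of 5 libraries, from 0 in knock-in 2 to 3.80 in knock-in 1 (exact p = 0.125). All 7 dense HoxC tiles and 16 of 19 dense HoxD tiles (84.2%) averaged between 1% and 20%, against 18.2% of the other dense tiles. The dense Hox tiles thus held a low level of methylation where the median dense tile elsewhere was close to none. None of the 26 reached 20%, a level met by 3.46% of the others.

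**Figure D2:**
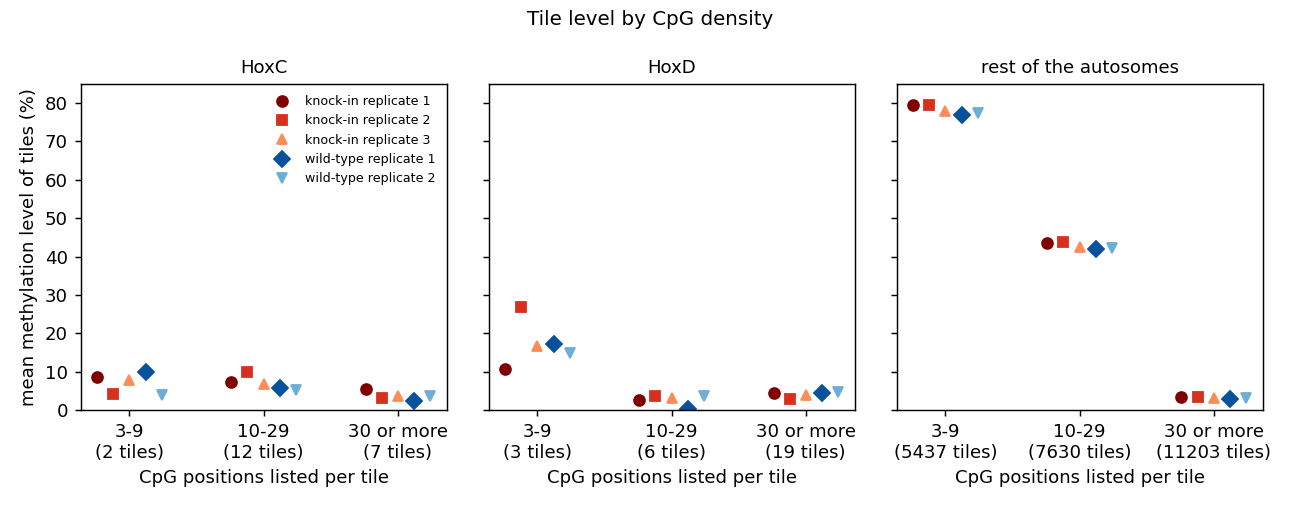
Mean tile level (%) by the number of CpG positions listed per tile, for HoxC, HoxD and the rest of the autosomes, one symbol per library. Tiles of the rest fall from 78.3% to 3.23% as density rises. Hox tiles are low in every class except the sparsest of HoxD, which holds 3 tiles and averages 17.4% over the libraries.

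Along HoxC the level was uneven. Of the tiles read in all 5 libraries, those from the start of the window to 90 kb averaged under 7%, and the 2 above 20% lay at 101 and 118 kb. The 3 deepest libraries, which cover more tiles, add levels of 19.3%, 17.2% and 12.9% at 53, 56 and 58 kb, and with more positions they put the tile at 118 kb at 13.2%. The higher of them, chr15:102841000-102841999, was at 42.7% in knock-in 1, 47.2% in knock-in 2, 29.3% in knock-in 3, 28.6% in wild-type 1 and 24.0% in wild-type 2. The knock-in libraries were above the wild-type libraries by 13.4 points in the mean, and the nearest libraries were 0.744 points apart. That tile rests on 3 shared positions, with 53 to 307 reads a library (edgeR quasi-likelihood test, adjusted p = 1). With the 18 positions shared by the 3 deepest libraries it was 19.7% in knock-in 1, 18.2% in knock-in 3 and 16.9% in wild-type 2, a narrower range. Among the 3 positions, base 102841911 (minus strand) separated the groups, at 41.7%, 56.25% and 41.0% in knock-in 1 to 3 and 21.1% and 34.8% in wild-type 1 and 2.

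The other partly methylated HoxC tile, chr15:102858000-102858999, was at 16.8% in knock-in 1, 41.5% in knock-in 2, 14.9% in knock-in 3, 10.2% in wild-type 1 and 16.8% in wild-type 2. Knock-in 2 alone was high, and the groups overlapped. The difference of 10.9 points was 2.35 without knock-in 2. Its position at base 102858585 (minus strand) was methylated in every library, from 41.7% to 100%, while its position at base 102858549 (minus strand) differed between groups, at 28.6%, 47.1% and 37.0% in knock-in 1 to 3 against 9.09% and 10.5% in wild-type 1 and 2. That position had 11 to 73 reads a library and an edgeR p of 0.379 (adjusted p = 1).

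In HoxC the smallest edgeR p belonged to chr15:102794000-102794999, a tile of 4 shared positions. It was at 7.47% in knock-in 1, 14.1% in knock-in 2 and 2.52% in knock-in 3, and at 0 in both wild-type libraries (unadjusted edgeR p of 0.0364, adjusted 1). The wild-type zeros rest on 48 and 90 reads, which allow up to 6.25% and 3.33%. Over the positions shared by the 3 deepest libraries the tile was at 6.90% in knock-in 1, 1.96% in knock-in 3 and 0 in wild-type 2. A second tile with no overlap and knock-in higher was chr15:102844000-102844999, where the levels were 5.43%, 9.68%, 6.42%, 0 and 5.17% in the usual order of knock-in 1 to 3 and wild-type 1 and 2. At a coverage minimum of 20 its difference fell from 4.59 to 1.30 points. Over the 13 positions shared by the 3 deepest libraries the groups overlapped in this tile. There it was at 5.28% in knock-in 1, 6.29% in knock-in 3 and 5.52% in wild-type 2. Its position at base 102844830 (minus strand) had 36.2%, 37.1% and 9.89% in the knock-in libraries and 0 in both wild-type libraries (unadjusted edgeR p of 0.0536, adjusted 1). The plus strand of the same CpG, at base 102844829, did not show this, with 0 in knock-in 1, knock-in 2 and wild-type 1, 4.35% in knock-in 3 and 1.56% in wild-type 2. The 1 tile with knock-in lower, chr15:102769000-102769999, was near 0 everywhere, at most 0.671% in knock-in and at 1.98% and 2.70% in wild-type libraries.

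The HoxC tile with most reads, chr15:102812000-102812999, was steadier, at 3.67%, 3.18%, 2.13%, 9.57% and 3.18% in the same order. Wild-type 1 was the exception there. Within it the position at base 102812537 (plus strand) was at 41.2% in wild-type 1 and between 0 and 3.28% in the other 4 libraries. A further position, base 102812550 (plus strand), had methylated reads in wild-type 2 alone, at 6.56%. The tile chr15:102806000-102806999, also among those with most reads, ranged from 0.556% to 5.48%, and chr15:102865000-102865999 from 0 to 3.94%.

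**Figure D3:**
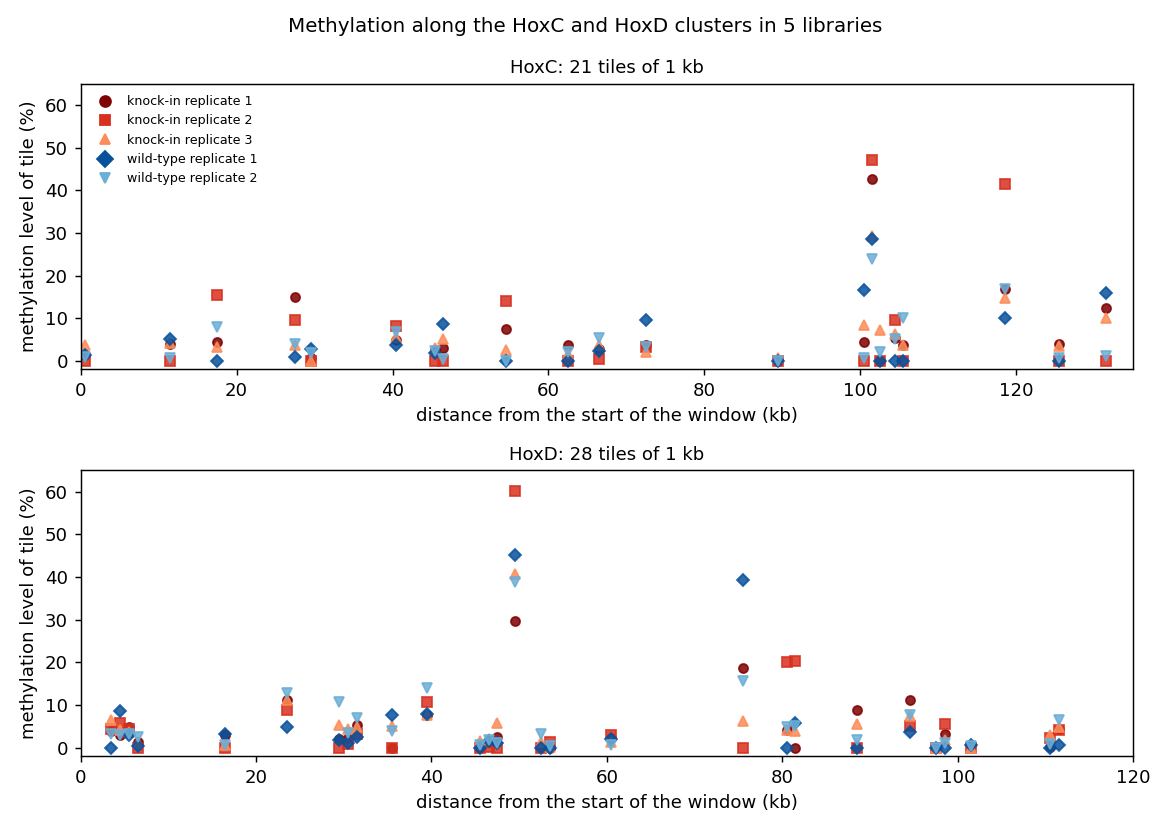
Methylation level (%) of each 1-kb tile of HoxC (21 tiles) and HoxD (28 tiles) against distance (kb) from the start of the window, one symbol per library. Most tiles lie under 20% in every library. The exceptions include the HoxC tiles at 101 and 118 kb and the HoxD tiles at 49 and 75 kb.

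In HoxD the 5 placed genes allow the tiles to be read gene by gene. Hoxd12 and Hoxd11, which pattern limbs and the urogenital tract, come first. The tile chr2:74513000-74513999, just after the Hoxd12 start, averaged 9.74% over 23 positions and was at 11.2% in knock-in 1, 8.77% in knock-in 2, 11.1% in knock-in 3, 4.82% in wild-type 1 and 12.8% in wild-type 2. Every library showed methylation there, wild-type 1 least, and the groups overlapped. Its highest position, 379 bases after the start site, averaged 37.9%. The Hoxd12 promoter window itself had no position shared by all 5 libraries, and its 2 positions shared by the 3 deepest were at 0% of 84 reads in knock-in 1, 7.85% of 395 in knock-in 3 and 15.6% of 64 in wild-type 2.

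The Hoxd11 promoter had a low level of methylation. Its 12 shared positions averaged 0.487% in knock-in 1, 0 in knock-in 2, 4.09% in knock-in 3, 0 in wild-type 1 and 3.09% in wild-type 2. Both zeros rest on few reads, 0 of 223 in knock-in 2 and 0 of 201 in wild-type 1, which allow levels of up to 1.35% and 1.49%. The highest libraries were therefore one of each group, and the groups overlapped (means 1.53% ± 2.23, SD, n = 3, and 1.55% ± 2.19, SD, n = 2). Over the 26 positions shared by the 3 deepest libraries the level was 2.11% in knock-in 1, 4.04% in knock-in 3 and 4.59% in wild-type 2. The tile that holds most of this promoter, chr2:74520000-74520999, has more reads than any other in HoxD and 38 shared positions, and it ranged from 0.973% in knock-in 2 to 4.48% in knock-in 3 (edgeR adjusted p = 1). The tile chr2:74525000-74525999, between Hoxd11 and Hoxd10, was at 0, 0 and 5.07% in knock-in 1 to 3 and at 7.64% and 3.98% in wild-type 1 and 2, with overlapping groups.

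Hoxd10, which acts in limb and spinal motor neuron patterning, had the highest promoter mean of the 4, at 4.89%, above Hoxd11 at 1.53%, Hoxd1 at 1.09% and Hoxd9 at 0.188%, though wild-type 1 was at 0 in all 4. Over 6 positions, 88 to 130 bases before the start site, it was at 2.42% in knock-in 1, 9.07% in knock-in 2, 3.75% in knock-in 3, 0 of 76 reads in wild-type 1 (up to 3.95%) and 9.20% in wild-type 2. The wild-type libraries again spanned the knock-in libraries. The whole tile, chr2:74529000-74529999, was at 7.72%, 10.7%, 7.78%, 7.97% and 14.0% in knock-in 1 to 3 and wild-type 1 and 2, so no library lacked methylation there.

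Farther up from Hoxd10, single positions on one strand lay on opposite sides. The position at base 74529145 (plus strand), 803 bases before the Hoxd10 start, was at 0, 0 and 2.56% in the knock-in libraries and at 51.9% and 36.4% in wild-type 1 and 2 (unadjusted edgeR p of 0.0410, adjusted 1). The position at base 74529158 (plus strand), 790 bases before the start, was at 20.0%, 90.9% and 7.79% in knock-in and at 0 in both wild-type libraries (unadjusted edgeR p of 0.0494, adjusted 1). Each had as few as 11 reads in a library, at which 0 methylated reads allow up to 27.3%. On the other strand the position at base 74529646, 302 bases before the start, was at 29.03%, 25.0% and 24.3% in knock-in and 10.0% in each wild-type library (edgeR adjusted p = 1). None of these passed after adjustment over all 280635 positions.

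Hoxd9 was the cleanest. All 8 positions of its promoter averaged 0.188%, with 0.941% in knock-in 3 and no methylated read among 258, 153, 152 and 222 reads in knock-in 1, knock-in 2, wild-type 1 and wild-type 2, which allow up to 1.16%, 1.96%, 1.97% and 1.35%. The tile that follows, chr2:74536000-74536999, stayed between 0.205% and 1.96% over 21 positions. Hoxd9 is a paralogue of Hoxa9, a main Hox gene of blood stem cells, which lies in another cluster.

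Between Hoxd9 and Hoxd1, where RefSeq puts Hoxd8, Hoxd3, Hoxd4, Mir10b and the noncoding RNA Haglr, no gene was placed on the tiles. Here lay the most methylated DNA of the cluster. The tile chr2:74539000-74539999 was at 29.7% in knock-in 1, 60.3% in knock-in 2, 40.6% in knock-in 3, 45.1% in wild-type 1 and 38.8% in wild-type 2, with 4 positions. It was partly methylated in every library, and its lowest and highest values were both in knock-in libraries (edgeR adjusted p = 1). The tile before it, chr2:74538000-74538999, which the 3 deepest libraries cover, was at 25.8%, 31.7% and 26.6% in knock-in 1, knock-in 3 and wild-type 2. The neighbouring positions at bases 74559375 and 74559385 (minus strand), in a tile with too few positions to be tested, averaged 76.3% and 90.7% and were the only members above 75%.

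With all 5 libraries the widest group difference of a Hox tile was at chr2:74565000-74565999. It was at 18.8% in knock-in 1, 0 of 183 reads in knock-in 2 (which allows up to 1.64%), 6.25% in knock-in 3, 39.4% in wild-type 1 and 15.7% in wild-type 2. Knock-in 1 was above wild-type 2, so the groups overlapped, and the difference of -19.2 points did not pass (edgeR adjusted p = 1). It rested on wild-type 1: without that library it was -7.38 points, less than the 15.7 points of chr15:102841000-102841999, and without wild-type 2 it was -31.0. Over the 18 positions shared by the 3 deepest libraries wild-type 2 lay between the knock-in libraries. There the tile was at 17.9% in knock-in 1, 7.04% in knock-in 3 and 12.1% in wild-type 2. Its position at base 74565618 (plus strand) separated the groups, at 6.36%, 0 and 0.556% in knock-in and 40.9% and 38.3% in wild-type libraries (unadjusted edgeR p of 0.0416, adjusted 1).

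Hoxd1, at the end of the cluster that is used first in the embryo, had a low promoter level and a higher one after the start site. Over 10 promoter positions the levels were 0.270%, 1.41%, 2.91%, 0 of 200 reads (up to 1.50%) and 0.845% in knock-in 1 to 3 and wild-type 1 and 2, with overlapping groups. The CpG at base 74600950 was the highest of them, at 14.1% in knock-in 2, 15.1% in knock-in 3 and 0 in the other 3 libraries. The next tile, chr2:74601000-74601999, whose 30 positions lie 305 to 583 bases after the start site, was at 4.38%, 4.19%, 4.77%, 0.620% and 6.46%. Wild-type 1 was low and wild-type 2 highest. Farther up, chr2:74584000-74584999 averaged 7.04% over 28 positions, from 3.74% in wild-type 1 to 11.2% in knock-in 1.

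**Figure D4:**
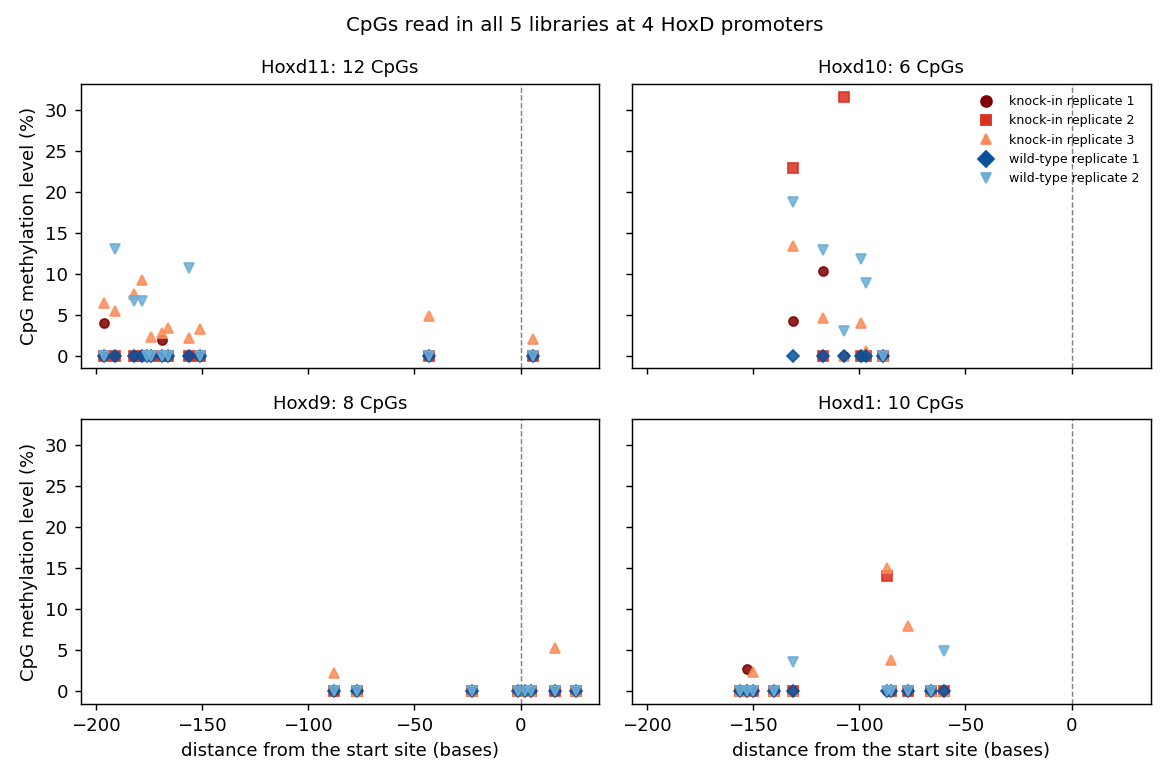
Methylation level (%) of each CpG position read in all 5 libraries against its distance in bases from the start site (dashed line) at Hoxd11 (12 positions), Hoxd10 (6), Hoxd9 (8) and Hoxd1 (10), one symbol per library. Every position averages under 20%. Hoxd9 has methylated reads in knock-in 3 alone, and Hoxd10 reaches the highest position mean, 11.8%.

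No Hox tile was called different between the groups. In 6 of the 49 tiles all knock-in libraries were above both wild-type libraries and in 1 all were below, that is 12.2% and 2.04%, while over all autosomal tiles the shares were 8.98% and 3.61%, so the Hox tiles were near the background. In 1 of the 6 the group means were also at least 10 points apart, and in no lower tile, beside 2.37% and 0.621% of all tiles. By edgeR's quasi-likelihood test with Benjamini-Hochberg adjustment 0 Hox tiles passed 0.05 in either direction, as on all autosomes (0.0% of 24319). At an unadjusted p under 0.05 edgeR gave 1 higher tile and 0 lower (background 0.843% and 0.748%), and limma on arcsine levels gave 0 higher and 1 lower (background 3.01% and 1.26%) and no call after adjustment. Because limma adds reads to both counts, its value at 0 methylated reads depends on depth alone. The tile chr2:74587000-74587999, at 0 in every library, had an unadjusted limma p of 0.212. The tile difference was positive in 28 Hox tiles, negative in 20 and 0 in 1, with a median of 0.278 points beside 0.0790 over all tiles.

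The other tiles whose groups did not overlap were all in HoxD and all low. The tile chr2:74493000-74493999 was at 3.97%, 4.48% and 6.50% in knock-in and at 0 and 3.25% in wild-type libraries. In chr2:74495000-74495999 knock-in libraries were between 3.71% and 4.76% and wild-type libraries at 2.95% and 3.24%. In chr2:74588000-74588999 they were between 1.85% and 5.56% against 0 and 1.05%. The differences were 3.36, 1.19 and 3.04 points, and edgeR's adjusted p was 1 for all 3. Without wild-type 1 the first of them was 1.73 points. Over the 18 positions of chr2:74588000-74588999 shared by the 3 deepest libraries the order turned. There it was at 2.55% in knock-in 1, 3.01% in knock-in 3 and 6.46% in wild-type 2. In chr2:74493000-74493999 and chr2:74495000-74495999 knock-in 1 and knock-in 3 stayed above wild-type 2 in those libraries.

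Single positions leaned the other way from tiles. Of the 536 positions, 11 (2.05%) had all knock-in libraries above and 21 (3.92%) all below the wild-type libraries, against 2.38% and 0.987% over all autosomal positions. HoxD, with 392 of the 536 positions, held 17 of the 21 lower positions and 5 of the 11 higher ones. Lower positions were 4.34% of those in HoxD and 2.78% of those in HoxC, and higher ones 1.28% and 4.17%. EdgeR called 0 of the 536 after adjustment (0.000356% of all positions, that is 1 of 280635, were called higher and 0.0% lower). At an unadjusted p under 0.05 it gave 1 higher and 2 lower (background 0.201% and 0.0652%), and limma gave 7 and 28 (background 2.2% and 1.3%), with none called after adjustment. The limma counts also carry depth, since a position at 0 gets a value set by its reads alone. Base 102751721 (minus strand), at 0 in every library, had an unadjusted limma p of 0.197. How many of the limma positions reflect depth was not tested. Fisher's exact test on reads pooled per group, which ignores the spread between libraries, called 6 positions higher and 18 lower (background 2.08% and 1.03%). Neighbouring positions share reads, so these are not independent counts.

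Knock-in 2 and wild-type 1 had methylated reads at fewer positions than the deeper libraries did. Of the 536 positions, 61.8% had no methylated read in knock-in 1, 87.3% in knock-in 2, 39.4% in knock-in 3, 83.2% in wild-type 1 and 52.2% in wild-type 2. With every position thinned to 10 reads in every library the shares were 78.4%, 88.1%, 70.1%, 85.4% and 73.5%, so the order stayed while the range narrowed. Thinned mean levels were 4.63%, 4.93%, 5.52%, 4.07% and 5.39%, so knock-in 2 had a mean like the others but more positions at 0 and, at the other end, 24 positions at or above 50% after thinning, against 10 to 14 in the other 4 libraries. Examples are base 74550058 (plus strand), at 100% in knock-in 2 and at most 5.52% elsewhere with as few as 10 reads, and base 102858231 (plus strand), at 93.3% in knock-in 2 and 0 to 30.3% elsewhere. The same held outside the clusters, where 32480 autosomal positions with mean levels from 1% to 20% were at 0 after thinning in 80.5% in knock-in 2 and 82.0% in wild-type 1 against 66.2% to 70.9% in the others. The part played by DNA input or amplification in this pattern was not tested.

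**Figure D5:**
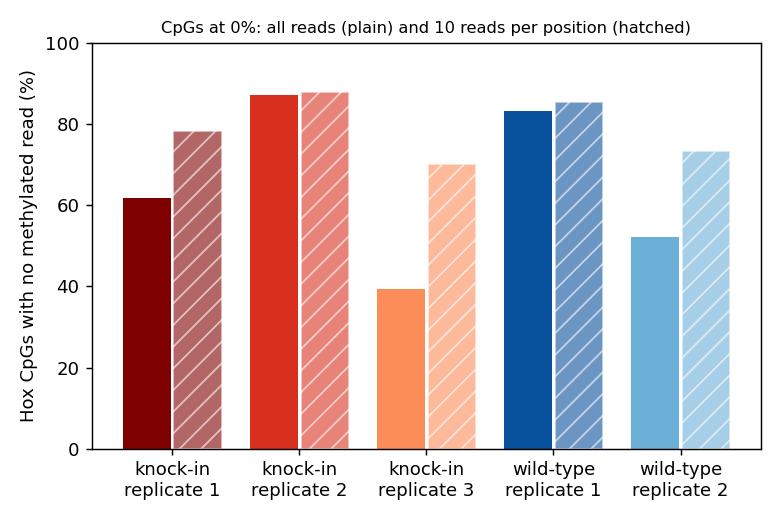
Share (%) of the 536 Hox positions with no methylated read in each library, with all reads (plain bars) and with 10 reads per position (hatched bars). Knock-in 2 and wild-type 1 are highest in both, at 88.1% and 85.4% after thinning, against 70.1% to 78.4% in the other 3.

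The low level along the clusters had a shape that deep libraries shared. Over the 26 dense Hox tiles Spearman's rho was 0.84 between knock-in 3 and wild-type 2, 0.72 between knock-in 1 and knock-in 3 and 0.72 between knock-in 1 and wild-type 2. Pairs with a shallow library were lower in both kinds of pair: 0.34 between wild-type 1 and 2, 0.28 and 0.36 between wild-type 1 and knock-in 1 and 3, 0.44 to 0.57 between knock-in 2 and the deeper libraries, and 0.081 between knock-in 2 and wild-type 1. Over all 49 tiles the contrast was smaller. The deep pairs were at 0.61, 0.65 and 0.55 in the order above, and pairs with a shallow library at 0.17 to 0.54. These are descriptions over tiles that share the same CpG content. Where both strands of a CpG were read, their means over the 5 libraries were within 10 points in 5 of 6 HoxC and 25 of 26 HoxD pairs, most of them near 0. In single libraries the strands differed more, by over 10 points in at least 1 library in 3 of the HoxC and 10 of the HoxD pairs, and by up to 37.1 and 52.6 points, both in knock-in 2.

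The 3 deepest libraries extend the view to 40 HoxC and 41 HoxD tiles with at least 3 positions. All 40 HoxC tiles and 39 of the 41 HoxD tiles averaged under 20% and none reached 80%, against 38.1% under 20% and 50.2% at 80% or more among 62641 other autosomal tiles. Beyond the HoxC window the 7 tiles on the low-coordinate side were at 67.5% in knock-in 1, 66.3% in knock-in 3 and 63.7% in wild-type 2, and the 17 on the other side at 26.1%, 26.9% and 27.1%. HoxD had 4 tiles on each side, at 26.3% to 29.6% before and 36.5% to 40.1% after the window. The tiles beyond the windows were not uniformly methylated: 12 of the 17 beyond the high-coordinate end of HoxC and 2 of the 4 on each side of HoxD averaged under 20%.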

How the data were processed

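ERRBS libraries of LSK cells, 3 knock-in and 2 wild-type, were grouped by the labels' genotype. CASAVA 1.7 and Bismark were used upstream on build mm9, per the submitters' processing notes. The Bismark version, read filters and any removal of duplicate reads are not given in the sources used here. Each deposited file lists, per strand of a CpG, the coverage as a count of reads, at least 10, and the percent of reads called C and T. Methylated and unmethylated reads were recovered from the deposited coverage and percent, which gave whole reads at 100% of positions. Level is methylated reads over their sum, and a tile pools the reads of at least 3 shared positions. Median reads per shared HoxC position ranged from 17 to 140.5, so single positions are imprecise in the shallow libraries.

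Tiles and positions were tested over all autosomes with edgeR 4.0.16 (quasi-likelihood, a term for each library) and limma 3.58.1 on arcsine square root levels with 0.5 reads added, in R 4.3.3, with Benjamini-Hochberg adjustment and a threshold of 0.05. Both were also run on simulated tiles whose rise was wider than any Hox tile difference seen here. That run does not show whether they would find smaller differences. Cluster means were compared by exact permutation over libraries in Python 3.11.15 with scipy 1.17.1. A floor for 0 methylated reads is 3 reads of the total, which in tiles and promoters is summed over positions that share reads. Named tiles were those averaging 20% or more, the 3 with most reads, the 4 with the smallest edgeR p and up to 4 with the widest gap between groups that do not overlap. Named positions were the 3 with the smallest edgeR p and up to 3 with the widest such gap, per cluster. Other tiles and positions were chosen after their values were seen. The windows are set by coordinates alone, but the choice of windows and of lists was made with earlier results of these data known.

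Promoter windows were placed only where at least 10 listed positions matched, at most 1 was off, and the match scored at least 2 times the next best place. Alternatives were a coverage minimum of 20, thinning to 10 reads, read weighting, other position sets, joined strands, tiles of at least 10 positions or shifted by 500 bases, other tests, and leaving out each library.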

Additional observations from a re-analysis of the deposited data

Results flagged for a closer look

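The HoxD group difference had opposite signs in the 2 kinds of library that chromosome X separates. Knock-in 2 minus wild-type 1, the pair with high levels in CpG-dense chromosome X tiles, was 0.184 points (4.45% against 4.26%). Among the libraries with low chromosome X levels, knock-in 1 and 3 minus wild-type 2 was -0.698 points (5.16% against 5.86%). These come from 2 and 3 libraries, and the difference between them was not tested.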

How the results depend on the processing

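The HoxC level difference (1.12 points) reversed at a coverage minimum of 20 (-0.703) and over the positions shared by the 3 deepest libraries (-0.291), and it ranged from 0.893 to 1.31 when 1 library was left out. It kept its sign after thinning (1.35), with strands joined (1.36) and over each library's own positions (0.857). The HoxD difference (-0.139) reversed within libraries of high chromosome X level (0.184) and when weighted by reads (0.102), and ranged from -0.935 to 0.657 when 1 library was left out. The HoxC gap to density-matched tiles differed by 0.743 points between groups (exact p = 0.1) and reversed at a coverage minimum of 20 (-1.54). It ranged from 0.347 without wild-type 2 to 1.14 without wild-type 1. The HoxD gap differed by -0.792 (exact p = 0.2) and kept its sign under all 9 alternatives run. HoxD minus HoxC reversed at a coverage minimum of 20 (1.26) and weighted by reads (0.0331), and ranged from -0.507 to 0.287 when 1 library was left out. The cause was not tested.

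No alternative of the tile test, by edgeR or by limma, called a Hox tile after adjustment. Fisher's exact test on reads pooled per group called 6 positions higher (background 2.08%) and 18 lower (background 1.03%). Tiles whose groups did not overlap, 6 higher and 1 lower, were 3 and 0 among 22 tiles of at least 10 positions (8.81% and 3.19% of all such tiles), 0 and 0 among 17 at a coverage minimum of 20 (6.15% and 2.9%), and 5 and 3 of 50 after a shift of 500 bases (9.15% and 3.78%). Leaving out 1 library gave 7 to 16 higher and 3 to 11 lower, and over all tiles 13.6% to 20.6% and 6.02% to 13.9%. Both Hox counts were highest without wild-type 2. Of 137 alternative values of the 26 named tiles and positions, 125 moved by less than the spread between libraries. This count does not measure stability, because leaving out 1 knock-in library cannot move a difference by that spread. Large shifts are among the 125. Without knock-in 2 the difference at base 74529158 (plus strand) fell from 39.6 to 13.9 points. Without knock-in 3 that of chr2:74520000-74520999 turned from 0.221 to -0.730.

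No paired analysis was possible because the labels give no replicate numbers: those used here follow accession order and pair no libraries. Depth limits single positions most: wild-type 1 had a median of 17 reads per HoxC position, and the 3-against-2 design cannot give an exact p below 0.1.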
